A study of Mus musculus with 12 samples.

Results

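The genes described here are 10 transporters that carry amino acids across the membranes of mouse cells, Slc3a2, Slc7a5, Slc7a6, Slc7a11, Slc7a1, Slc1a5, Slc38a1, Slc38a2, Slc36a4 and Slc43a1. They were taken by symbol from a table of RNA-seq read counts with 33100 gene rows, and each symbol had 1 row. All 10 passed the filter on low counts and were among the 16831 genes tested. The study sequenced total RNA of mouse natural killer (NK) cells, as the labels name them, in 4 groups of 3 libraries. Wild-type (WT) mice gave a spleen and a tumor group, and so did conditional knockout (cKO) mice, with 1 gene knocked out. The sources used here do not name the strain, age, Cre driver, kind of tumor or way of isolating the cells, nor do they say that each library came from its own animal.

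Amino acid carriers of the solute carrier (SLC) class work as pairs, as exchangers and as pumps. Slc3a2 encodes the heavy chain of CD98 (4F2hc), a glycoprotein that binds 1 of several light chains through a disulfide bond and brings it to the cell surface. Among the light chains, Slc7a5 (LAT1) exchanges glutamine for leucine and other large neutral amino acids, Slc7a6 (y+LAT2) exchanges cationic for neutral amino acids, and Slc7a11 (xCT) imports cystine for glutamate and so feeds glutathione synthesis. The other members need no heavy chain. Slc7a1 (CAT1) carries arginine and lysine, Slc1a5 (ASCT2), Slc38a1 (SNAT1) and Slc38a2 (SNAT2) take up small neutral amino acids such as glutamine with sodium, Slc36a4 (PAT4) transports proline and tryptophan, and Slc43a1 (LAT3) lets large neutral amino acids pass by facilitated diffusion. Leucine and glutamine uptake is known to sustain the kinase complex mTORC1 and c-Myc in activated NK cells, and amino acid shortage raises many transporters through the transcription factor ATF4.

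Promoter sequence is shown for 2 members at the ends of the range described below. Slc7a11 went from almost no reads in spleen to 55.4 to 341 CPM (counts scaled to a common library size) in tumor, and Slc43a1 was the member with lower levels in tumor. RefSeq promoter windows (GRCm38.p6, 250 bases before to 50 after a start) were at hand for 7 of the 10 members, in 9 windows. Each window was searched on both strands for TGATGNAA, the core of the response element bound by C/EBP and ATF factors, and for CACGTG, the E-box bound by basic helix-loop-helix factors. Of all 32851 windows of that length, 3.97% held the first motif and 7.15% the second. Among the 9 windows of members, only that of Slc7a11 held the first, once on the gene strand from base -66 and once on the other strand from base -47, counted back from the start. Only that of Slc43a1 held the second, at base -64, and the 2 motifs did not overlap. The 250 bases before each start follow 5′ to 3′ on the gene strand, with the motif letters in capitals, at chr3:50443614-50443863 (minus strand) for Slc7a11 and chr2:84840073-84840322 (plus strand) for Slc43a1. The Slc43a1 stretch lies inside the gene as listed, which begins at base 84838850, so the start it precedes is not the gene's first. A match is a match of letters and no evidence of binding.
Slc7a11: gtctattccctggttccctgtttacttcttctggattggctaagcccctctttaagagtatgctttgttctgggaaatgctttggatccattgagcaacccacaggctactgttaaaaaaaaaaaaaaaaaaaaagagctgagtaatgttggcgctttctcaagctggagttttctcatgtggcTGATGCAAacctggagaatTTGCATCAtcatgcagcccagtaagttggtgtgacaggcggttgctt
Slc43a1: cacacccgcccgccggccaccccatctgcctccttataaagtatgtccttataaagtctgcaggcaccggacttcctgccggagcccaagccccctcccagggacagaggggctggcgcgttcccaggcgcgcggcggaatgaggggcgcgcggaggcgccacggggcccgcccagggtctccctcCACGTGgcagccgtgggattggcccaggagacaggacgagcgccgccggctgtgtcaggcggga

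Library totals ran from 9542329 to 13753737 counts in spleen and from 15765906 to 37118494 in tumor. Marker genes did not bear out the label in every tissue. Ncr1, which encodes the NK receptor NKp46, ranged from 90.8 to 204 CPM in spleen but only from 0.421 to 1.86 CPM in tumor, 6 libraries each. The 8 NK cell markers summed to 1193 to 1574 CPM in spleen and to 39.4 to 186 CPM in tumor, and all 8 were lower in tumor in both genotypes. Spleen libraries also held B cell RNA, with Pax5, a transcription factor of the B lineage, at 465 to 648 CPM. The 7 B cell markers summed to 1716 to 2197 CPM in spleen, above the NK sum in each library. Sums of different genes do not give shares of cells. Tumor libraries held macrophage RNA, with 10 markers summing to 6149, 13047 and 7591 CPM in WT replicates 1, 2 and 3 and to 2139, 2001 and 797 CPM in cKO. Tumor WT replicate 2 stood apart with collagen and other fibroblast markers at 1633 CPM, against 23.9 to 161 CPM in the other tumor libraries, and tumor cKO replicate 3 with the lowest macrophage sum. In bulk RNA, fewer cells of a type and less RNA per cell cannot be told apart, and this touches every spleen and tumor value below.

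Spleen libraries expressed the family in a steady order. Levels between genes were compared as RPKM, counts scaled by gene length and library total. In spleen WT, Slc3a2 was highest at 27.4 ± 1.45 RPKM (SD, n = 3), ahead of Slc38a1 at 12.2 ± 1.78 and Slc38a2 at 12.02 ± 1.65. The ranges of the 2 glutamine carriers overlapped. Slc1a5 followed at 8.81 ± 1.14 RPKM and Slc7a1 at 3.75 ± 0.135. Slc7a6, Slc7a5 and Slc36a4 lay close together at 1.20, 0.993 and 0.938 RPKM, and Slc43a1 at 0.273. The ranges of Slc7a6 and Slc7a5 overlapped, as did those of Slc7a5 and Slc36a4. Slc7a11 had 0, 0 and 2 reads in the 3 libraries. Spleen cKO kept Slc3a2 (27.9 ± 1.43 RPKM), Slc38a1 (14.1 ± 1.33), Slc38a2 (11.9 ± 1.06), Slc1a5 (8.54 ± 0.366) and Slc7a1 (3.96 ± 0.727) in the same places. Below them, Slc7a5 at 1.57 RPKM overlapped Slc7a6 at 1.22, and Slc36a4 at 0.569 overlapped Slc43a1 at 0.461.

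Tumor libraries had another order. In tumor WT, Slc3a2 stood at 233.9 ± 48.0 RPKM, Slc38a2 at 34.4 ± 11.3, Slc7a11 at 16.6 ± 7.11 and Slc38a1 at 15.1 ± 1.87. Next came Slc1a5 at 9.28 RPKM, Slc7a5 at 9.01, Slc7a1 at 6.68, Slc36a4 at 6.15, Slc7a6 at 1.72 and Slc43a1 at 0.0315. The overlapping neighbours were Slc7a11 with Slc38a1, Slc1a5 with Slc7a5, and Slc7a1 with Slc36a4. In tumor cKO, Slc3a2 led at 155.8 ± 6.18 RPKM, and Slc38a1 (29.7 ± 1.42), Slc38a2 (26.4 ± 2.96) and Slc7a5 (21.4 ± 4.20) overlapped from one to the next. Slc7a1 at 12.5, Slc1a5 at 11.3 and Slc7a11 at 8.03 RPKM likewise overlapped from one to the next, ahead of Slc7a6 at 3.36, Slc36a4 at 1.03 and Slc43a1 at 0.0613. Summed over the 10 genes, reads reached 329 to 356 CPM in the spleen of WT and 356 to 369.9 CPM in that of cKO mice. In tumor they reached 1363 to 1908 CPM with the WT and 1258 to 1286 CPM with the cKO genotype. Slc3a2 made up 25.0% to 28.7% of that sum in spleen, and in tumor 49.7% to 57.6% with the WT and 40.3% to 42.1% with the cKO genotype.

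**Figure D1:**
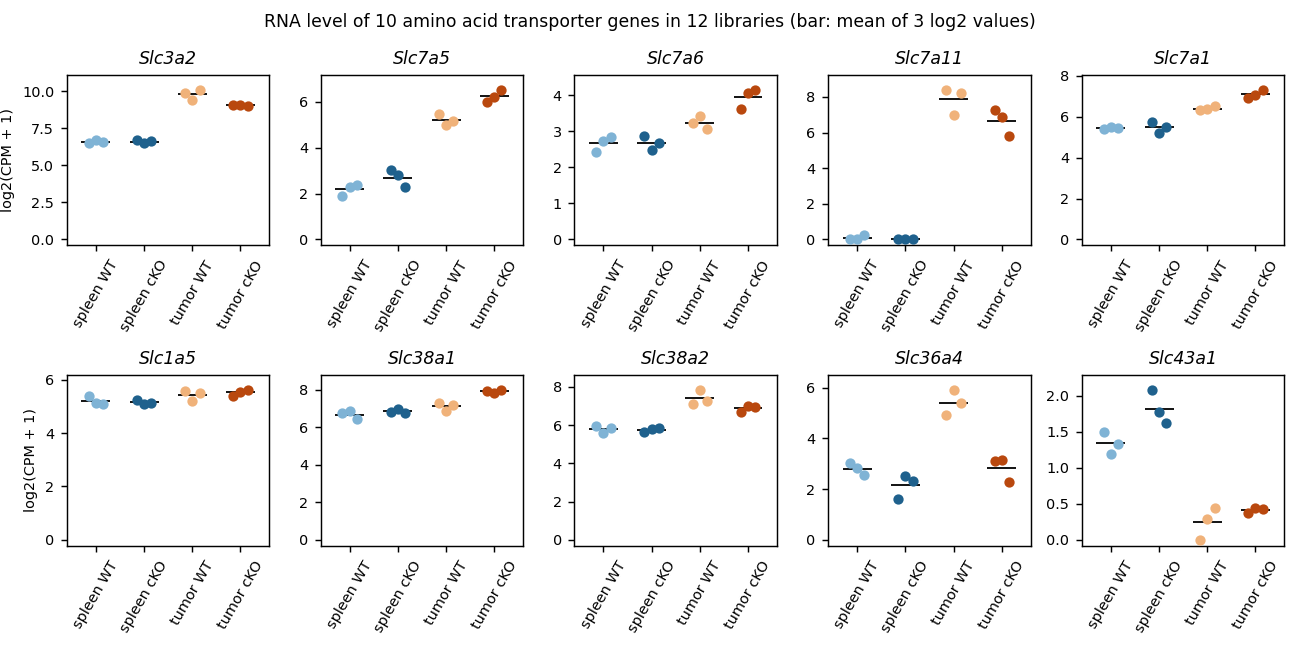
Level of each transporter gene as log2(CPM + 1) in the 12 libraries, 1 panel a gene, with 3 points a group (replicates 1 to 3 from left to right) and a bar at the mean of the 3 log2 values. Slc3a2, Slc7a5 and Slc7a11 sit far higher in tumor than in spleen, Slc43a1 sits lower, and the scales differ between panels.

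Tumor was compared with spleen in WT samples to see how the family differed between the tissues. Most members were higher in tumor, led by the cystine exchanger Slc7a11, the leucine exchanger Slc7a5 and their heavy chain Slc3a2, while Slc43a1 was lower. By edgeR's quasi-likelihood test with Benjamini-Hochberg adjustment over 16831 genes, at an adjusted p under 0.05, 8 members were higher and 1 lower, against a background of 33.9% of all genes called higher and 28.1% called lower (62.0% called). The members' median log2 difference was 1.31, and that of all genes 0.12. Their 3 and 3 values did not overlap for 9 of 10 members, as for 67.4% of all genes. Slc7a11 and Slc43a1 are among the members called and apart. Slc7a11 had 2 reads in all of spleen, and Slc43a1 at most 9 in a tumor library. Each thus passed the filter on low counts only through the tissue where it was high. That entry favoured their calls between tissues, which are no separate support.

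Slc3a2 (chromosome 19, 8706882 to 8723369, GRCm38) was at 90.2, 100.9 and 94.6 CPM in spleen WT replicates 1, 2 and 3 and at 929, 677 and 1100 CPM in tumor WT. Every tumor library lay far above every spleen library, a 9.48-fold difference (log2 3.25 ± 0.15 SE, adjusted p = 6.5e-09). Slc7a5 (chromosome 8, 121881150 to 121907694), the LAT1 light chain, was at 2.73, 3.92 and 4.25 CPM in spleen WT and at 43.8, 30.5 and 35.0 CPM in tumor WT. It was 10.1-fold higher in tumor, again with no overlap (log2 3.33 ± 0.25, adjusted p = 2.86e-07). Slc7a6 (chromosome 8, 106168857 to 106198706) was at 4.40, 5.65 and 6.24 CPM in spleen WT and at 8.37, 9.77 and 7.41 CPM in tumor WT. The groups lay apart but close, 1.58-fold (log2 0.66 ± 0.24, adjusted p = 0.0301), and this call was lost without spleen WT replicate 1 (adjusted p = 0.116) or 2 (0.0603) or tumor WT replicate 1 (0.0542) or 2 (0.0863). It was also lost without a filter on low counts (0.0744), with library totals alone as scaling (0.0800), with the 6 WT libraries alone (0.0657) and by limma (0.092 and 0.107 with pseudocounts of 0.1 and 1).

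Slc7a11 (chromosome 3, 49892526 to 50443614) was at 341, 125 and 294 CPM in tumor WT, where its 3 libraries held 15160 reads, against 2 reads in spleen WT. The pooled ratio was 4050, with an exact 95% interval for counting error alone of 1121 to 33443, and the adjusted p was 4.35e-06. Tumor WT replicate 2 was the low library of its group. For the arginine carrier Slc7a1 (chromosome 5, 148327410 to 148399904) the values were 41.1, 44.4 and 42.4 CPM in spleen WT and 79.0, 80.9 and 91.5 CPM in tumor WT. The groups were well apart, 1.97-fold (log2 0.97 ± 0.15, adjusted p = 0.000103).

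The glutamine carriers differed among themselves. Slc38a2 (chromosome 15, 96687394 to 96699698) was at 61.2, 46.8 and 56.5 CPM in spleen WT and at 137, 229.5 and 150.2 CPM in tumor WT. It was 3.15-fold higher in tumor (log2 1.65 ± 0.18, adjusted p = 5.87e-06), and tumor WT replicate 2 was the highest library. Its neighbour Slc38a1 (chromosome 15, 96571418 to 96642913), with 44481 bases between the genes, was at 105, 113 and 85.4 CPM in spleen WT and at 155, 114 and 145 CPM in tumor WT. Spleen WT replicate 2 almost met tumor WT replicate 2, and the difference was 1.36-fold (log2 0.45 ± 0.14, adjusted p = 0.0124). That call was lost without spleen WT replicate 3 (adjusted p = 0.0665) or tumor WT replicate 1 (0.0539), with library totals alone as scaling (0.0617), and by limma (0.074 and 0.0758). Slc1a5 (chromosome 7, 16781340 to 16798274) had 41.4, 34.0 and 33.4 CPM in spleen WT and 46.3, 36.4 and 43.9 CPM in tumor WT. These ranges overlapped and the test was not passed (log2 0.22 ± 0.14, adjusted p = 0.188), except when tumor WT replicate 2 and tumor cKO replicate 3 were left out together (0.0459).

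Slc36a4 (chromosome 9, 15709738 to 15743361), the proline and tryptophan transporter, was at 7.13, 6.18 and 4.82 CPM in spleen WT and at 29.3, 59.6 and 41.3 CPM in tumor WT. No values overlapped, and tumor was 7.17-fold higher (log2 2.84 ± 0.35, adjusted p = 2.14e-05). In tumor WT the order of its libraries, replicate 2 above 3 above 1, was also that of the summed macrophage markers. Slc43a1 (chromosome 2, 84838850 to 84863594) went the other way, from 1.82, 1.28 and 1.51 CPM in spleen WT to 0, 0.225 and 0.362 CPM in tumor WT. It was 7.54-fold lower (log2 -2.91 ± 0.73, adjusted p = 0.00369), with 14 reads in all in tumor WT. Beside these differences, 10 of 10 macrophage and 5 of 5 fibroblast markers were higher in tumor WT and 8 of 8 NK and 7 of 7 B cell markers lower. Their part in the result was not tested.

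The same contrast in cKO samples uses the other 6 libraries. Here 8 members were higher and 1 lower in tumor, Slc7a11 and Slc43a1 again among them, against 31.7% and 28.8% of all genes (60.5% called). The median log2 difference was 1.28 for the members and 0.07 for all genes. Ranges were apart for 9 of 10 members and for 70.0% of all genes. Slc3a2 was at 100.9, 88.9 and 98.1 CPM in spleen cKO and at 535, 541 and 507 CPM in tumor cKO, all tumor libraries being close together and 5.50-fold higher (log2 2.46 ± 0.15, adjusted p = 4.56e-08). Slc7a5 was at 7.12, 6.01 and 3.84 CPM in spleen cKO and at 63.1, 72.7 and 92.3 CPM in tumor cKO. That was a 13.5-fold rise with wide separation (log2 3.75 ± 0.24, adjusted p = 1.05e-07). Slc7a11 had 0 reads in spleen cKO and 6887 in tumor cKO, at 150.3, 116 and 55.4 CPM. It was called higher (adjusted p = 8.7e-06), 1313-fold with 3 counts over the spleen group set as floor.

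Slc7a1 was at 53.1, 35.7 and 44.4 CPM in spleen cKO and at 121, 133 and 160.3 CPM in tumor cKO (3.11-fold, log2 1.64 ± 0.15, adjusted p = 1.38e-06). Slc38a1 was at 112, 125 and 108 CPM against 238, 227 and 252 CPM (2.08-fold, log2 1.05 ± 0.14, adjusted p = 2.62e-05). Both genes had every tumor library above every spleen library. Slc7a6 went from 6.31, 4.61 and 5.40 to 11.4, 15.8 and 16.9 CPM (2.69-fold, adjusted p = 0.000219). Slc38a2 went from 48.6, 55.3 and 56.8 to 104, 126 and 121 CPM (2.19-fold, adjusted p = 0.000154). Neither gene's ranges overlapped.

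Slc1a5 passed narrowly in cKO, from 36.7, 32.9 and 34.5 CPM in spleen to 41.2, 45.9 and 48.3 CPM in tumor (1.30-fold, log2 0.38 ± 0.14, adjusted p = 0.0313). Its groups were apart, yet the call was lost without spleen cKO replicate 2 (adjusted p = 0.0915) or 3 (0.057) or tumor cKO replicate 2 (0.0685) or 3 (0.0875), and without a filter on low counts (0.0648). Slc36a4 was at 2.06, 4.71 and 4.05 CPM in spleen cKO and at 7.73, 7.76 and 3.84 CPM in tumor cKO. Tumor cKO replicate 3 fell within the spleen range and the test over all 12 libraries was not passed (log2 0.84 ± 0.37, adjusted p = 0.0629). It was passed without a filter on low counts (0.00462), by DESeq2 (0.0357), without that library (0.0161), without spleen cKO replicate 2 (0.048), without tumor WT replicate 2 (0.037), and without both tumor libraries (0.00404). Slc43a1 was at 3.23, 2.41 and 2.06 CPM in spleen cKO and at 0.299, 0.361 and 0.349 CPM in tumor cKO, 7.51-fold lower with no overlap (adjusted p = 0.00292). In cKO, 8 of 10 macrophage markers were higher in tumor, and again 8 of 8 NK and 7 of 7 B cell markers lower.

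**Figure D2:**
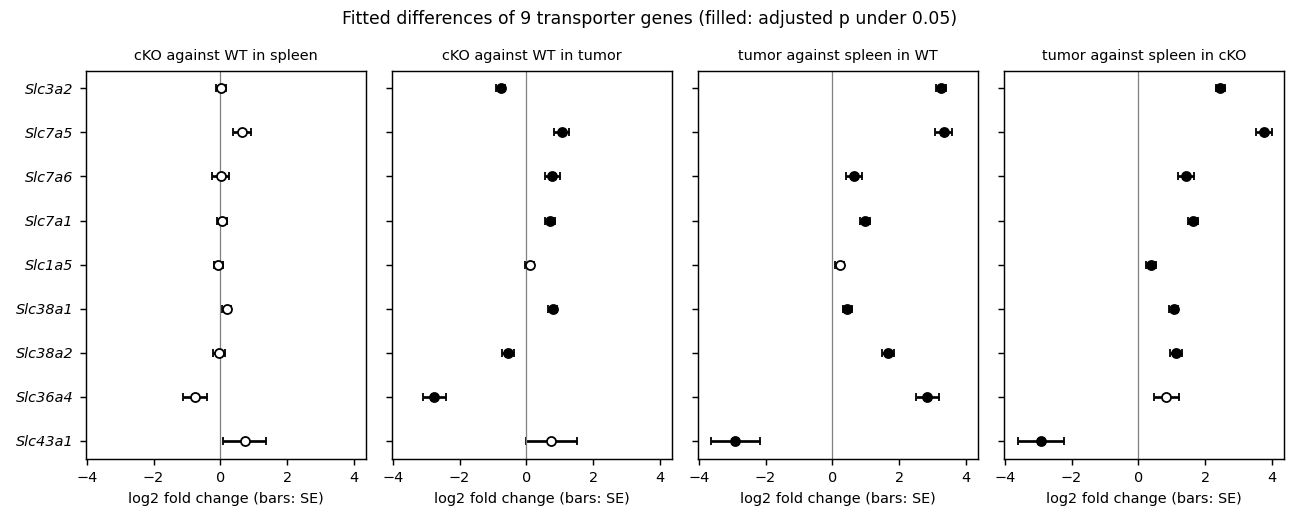
Fitted log2 fold changes of 9 transporter genes in the 4 comparisons, with bars of 1 SE and filled points where the adjusted p was under 0.05; positive values are higher in the first group named above a panel. Slc7a11 is left out because spleen cKO had no reads of it. In spleen no point is filled, and in tumor 4 points are filled to the right of 0 and 3 to the left.

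Samples labelled as tumor NK cells were compared between cKO and WT, which shares its tumor libraries with the contrasts above. The members split. The light chains Slc7a5 and Slc7a6, the arginine carrier Slc7a1 and the glutamine carrier Slc38a1 were higher in cKO, while the heavy chain Slc3a2, the glutamine carrier Slc38a2 and Slc36a4 were lower. That made 4 higher and 3 lower, against 16.4% and 21.6% of all genes (38.0% called), so 7 of 10 members were called where 38.0% of all genes were. Their median log2 change was 0.41, and that of all genes -0.12. Scaling by library totals alone moved the median of all genes to 0.05 and the share of higher calls from 43.1% to 57.4%. Under it the 3 lower members stayed below 0, but Slc38a2 no longer passed. Ranges were apart for 7 of 10 members and for 50.3% of all genes.

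Among the genes higher in cKO, Slc7a5 had 43.8, 30.5 and 35.0 CPM in tumor WT and 63.1, 72.7 and 92.3 CPM in tumor cKO. The lowest cKO library was above the highest WT library, and the mean rose 2.09-fold (log2 1.06 ± 0.23, adjusted p = 0.00292). Slc7a1 rose 1.65-fold, from 79.0, 80.9 and 91.5 CPM to 121, 133 and 160.3 CPM (log2 0.72 ± 0.15, adjusted p = 0.00234). Slc38a1 rose 1.73-fold, from 155, 114 and 145 CPM to 238, 227 and 252 CPM (log2 0.79 ± 0.14, adjusted p = 0.000767). Neither pair of ranges overlapped, and these 3 genes passed in each of the 21 alternative analyses. Slc7a6 rose 1.72-fold, from 8.37, 9.77 and 7.41 CPM to 11.4, 15.8 and 16.9 CPM (log2 0.78 ± 0.23, adjusted p = 0.0186). Its ranges were also apart, but the call was lost without tumor cKO replicate 2 (adjusted p = 0.0589) or 3 (0.0835), tumor WT replicate 1 (0.0524) or 3 (0.0653), and without a filter on low counts (0.0546).

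Among the genes lower in cKO, Slc36a4 changed most, from 29.3, 59.6 and 41.3 CPM in tumor WT to 7.73, 7.76 and 3.84 CPM in tumor cKO. The groups were far apart and the fall was 6.78-fold (log2 -2.76 ± 0.34, adjusted p = 0.000142). On the log2 scale of RPKM with a pseudocount of 1, limma gave Slc36a4 a smaller change of -1.78. Slc3a2 was at 929, 677 and 1100 CPM in tumor WT and at 535, 541 and 507 CPM in tumor cKO. All 3 cKO libraries were below the lowest WT library, a 1.71-fold fall (log2 -0.77 ± 0.15, adjusted p = 0.00128). Both genes passed in each of the 21 alternatives.

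Slc38a2 fell 1.47-fold, from 137, 229.5 and 150.2 CPM in tumor WT to 104, 126 and 121 CPM in tumor cKO (log2 -0.56 ± 0.18, adjusted p = 0.0262). Its ranges were apart, with tumor WT replicate 2 far above the rest. Without that library the change was -0.29 and the adjusted p 0.096. The Slc38a2 call was also lost without tumor cKO replicate 1 (adjusted p = 0.096) or 3 (0.0567), with library totals as scaling (log2 -0.39, adjusted p = 0.131) with the 6 tumor libraries alone (0.116), and by limma (0.201 and 0.196). Slc7a11 was at 341, 125 and 294 CPM in tumor WT and at 150.3, 116 and 55.4 CPM in tumor cKO. Tumor WT replicate 2 was below tumor cKO replicate 1, so the ranges overlapped, and the difference was not called (log2 -1.24 ± 0.44, adjusted p = 0.0558). Slc7a11 passed without tumor WT replicate 2 (log2 -1.56, adjusted p = 0.023) and without tumor cKO replicate 1 (log2 -1.55, adjusted p = 0.0464). It also passed without a filter on low counts (log2 -1.22, adjusted p = 6.35e-11) and by limma with a pseudocount of 1 (log2 -0.95, adjusted p = 0.0437), but not by DESeq2 (0.115) or by limma with a pseudocount of 0.1 (0.0655).

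Slc1a5 and Slc43a1 were not called. Slc1a5 had 46.3, 36.4 and 43.9 CPM in tumor WT and 41.2, 45.9 and 48.3 CPM in tumor cKO, which overlapped almost wholly (log2 0.10 ± 0.14, adjusted p = 0.612). Slc43a1 had 14 reads over the 3 tumor WT libraries and 22 over the 3 tumor cKO libraries (log2 0.74 ± 0.77, adjusted p = 0.459).

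Markers of other cells moved in the same comparison. All 10 macrophage markers were lower in tumor cKO, with sums of 797 to 2139 CPM against 6149 to 13047 CPM in WT, and 6 of 8 NK markers were lower. The count of NK markers called was 2 without tumor cKO replicate 3, 3 without tumor WT replicate 1 or 3, 3 with the 6 tumor libraries alone, and 3 and 2 by limma. All 5 markers of dividing cells were higher, with sums of 2790 to 3837 CPM against 693 to 1146 CPM, and of 9 T cell markers 3 were higher and 1 lower. T cell markers summed to 392 to 574 CPM in tumor cKO and 222 to 286 CPM in tumor WT. Of 5 fibroblast markers 3 were lower, at 23.9 to 73.9 CPM against 81.7 to 1633 CPM, but 0 were called without tumor cKO replicate 2, tumor cKO replicate 3 or tumor WT replicate 2, 1 with the 6 tumor libraries alone, and 5 without a filter on low counts. Of 7 B cell markers 1 was higher, with 0 called without tumor WT replicate 1 or 3, 2 without tumor cKO replicate 3, 3 without tumor WT replicate 2 and 5 without a filter. Of 5 neutrophil markers 1 was lower, with 2 called without tumor WT replicate 2 and 3 without a filter. No marker of these 7 lists was without reads in either tumor group. In the 6 tumor libraries Slc36a4 was higher where the macrophage sum was higher between the groups and within WT. Slc7a11 was lower on average in tumor cKO, though not called, and within cKO it fell in the order of the macrophage sum. Within WT it ran the opposite way, being lowest in tumor WT replicate 2, the library with the highest macrophage sum. Slc7a5 and Slc7a1 were higher in the libraries with more RNA of dividing cells between the groups, but not within WT. There replicate 2 had the highest sum for dividing cells and the lowest Slc7a5. Slc7a5 did follow the T cell sum across the 6 tumor libraries. That sum was 286, 222 and 262 CPM in tumor WT replicates 1, 2 and 3 and 392, 463 and 574 CPM in tumor cKO. Slc7a1 did not follow it within WT, being lowest in replicate 1, where the T cell sum was highest. The part of these cells in the transporter differences was not tested. When tumor WT replicate 2 was left out together with tumor cKO replicate 3, 6 members were called, Slc7a6 (adjusted p = 0.0504) and Slc38a2 (log2 -0.31, adjusted p = 0.0935) being lost and Slc7a11 gained (log2 -1.24, adjusted p = 0.000119).

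**Figure D3:**
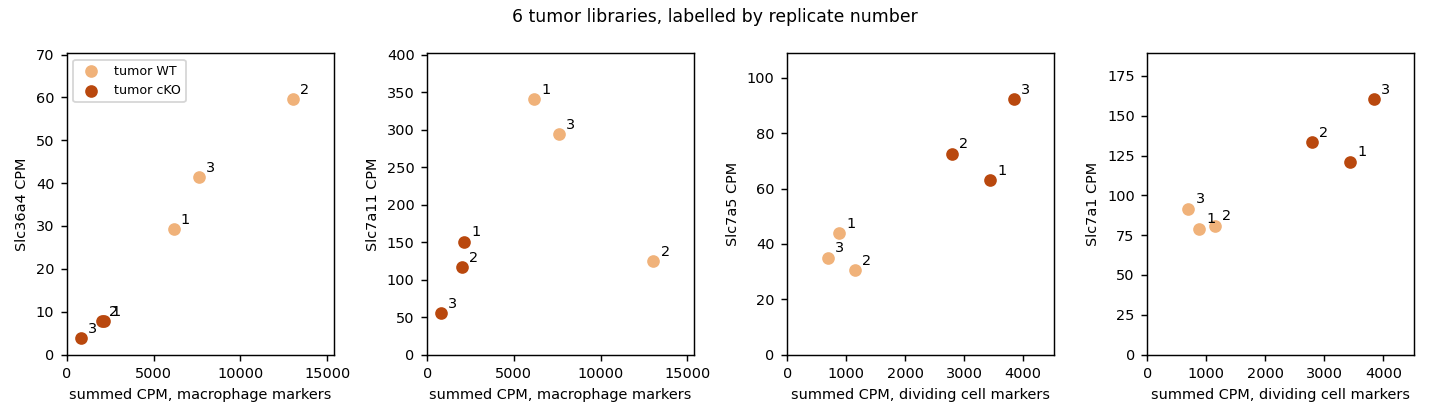
CPM of 4 transporter genes in the 6 tumor libraries (y axes) against the summed CPM of macrophage markers or of markers of dividing cells (x axes), with points numbered by replicate. WT libraries lie to the right for macrophage markers and to the left for dividing cells, and Slc7a11 in tumor WT replicate 2 lies apart from the other WT points.

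In spleen, cKO and WT were not told apart in these genes by the tests, which does not show that they were equal. None of the 10 was called by edgeR, DESeq2 or limma, 1 had an unadjusted p under 0.05, and 0.0297% of all genes were called. The members' median log2 change was 0.01, and that of all genes 0.00. Slc7a5 was the gene with the low unadjusted p (0.0321, adjusted p = 1), at 2.73, 3.92 and 4.25 CPM in WT and 7.12, 6.01 and 3.84 CPM in cKO. Spleen cKO replicate 3 lay within the WT range (log2 0.64 ± 0.27). Ranges were apart for 2 members, 11.4% of all genes having ranges apart. Slc36a4 was at 7.13, 6.18 and 4.82 CPM in WT and at 2.06, 4.71 and 4.05 CPM in cKO (log2 -0.76 ± 0.37, adjusted p = 1). Slc43a1 was at 1.82, 1.28 and 1.51 CPM in WT and at 3.23, 2.41 and 2.06 CPM in cKO (log2 0.74 ± 0.64, adjusted p = 1). For Slc3a2, Slc7a1, Slc7a6, Slc1a5, Slc38a1 and Slc38a2 the log2 changes ran from -0.06 to 0.18. Slc7a11 had 2 reads in WT and 0 in cKO, so no fold is given. Macrophage markers summed to 42.5 to 79.0 CPM in spleen WT and 137 to 199.8 CPM in spleen cKO, with none of 10 called by edgeR over 12 libraries and 8 at an unadjusted p under 0.05. Without a filter on low counts edgeR called 8 of them, and with the 6 spleen libraries alone 2. Without tumor cKO replicate 3 it called 1, while DESeq2 called 3 and limma 0. Dividing cell markers summed to 517 to 617 CPM in spleen WT and 725 to 907 CPM in spleen cKO. T cell markers summed to 73.8 to 95.1 CPM and to 96.6 to 165 CPM. EdgeR over 12 libraries called none of either list, with 3 of 5 and 5 of 9 at an unadjusted p under 0.05. Without a filter it called 2 of each. NK, B cell, neutrophil and fibroblast sums overlapped. The part of other cells in the spleen values was not tested.

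Whether the effect of the knockout differed between tumor and spleen was tested for each gene as an interaction. The difference was called for 4 members, 2 more positive in tumor and 2 more negative, against 7.68% and 10.6% of all genes (18.3% called). The members' median was 0.29, and that of all genes -0.10. Slc36a4 fell further in tumor than in spleen (difference of log2 changes -2.00 ± 0.51, adjusted p = 0.0175), and this held in each of the 20 alternatives. Slc3a2, with a log2 change of 0.01 in spleen, also fell further in tumor (-0.79 ± 0.21, adjusted p = 0.0201), but the call was lost without spleen cKO replicate 1 (0.053) or 3 (0.0556) or spleen WT replicate 1 (0.0551).

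The more positive differences were those of Slc7a1 (0.66 ± 0.21, adjusted p = 0.0467) and Slc38a1 (0.61 ± 0.19, adjusted p = 0.0455), both just under the threshold. Without a filter on low counts neither passed (Slc7a1 0.0533 and Slc38a1 0.0574). Leaving out 1 library ended the Slc7a1 call in 9 cases, with adjusted p from 0.0503 to 0.11 (all but spleen cKO replicate 1, tumor cKO replicate 1 and tumor WT replicate 2). It ended the Slc38a1 call in 9 cases, with adjusted p from 0.0526 to 0.115 (all but spleen WT replicate 3 and tumor WT replicates 1 and 2). Slc7a6 (0.77 ± 0.34, adjusted p = 0.13), Slc7a5 (0.42 ± 0.35, 0.437), Slc38a2 (-0.53 ± 0.26, 0.17), Slc1a5 (0.16 ± 0.20, 0.621) and Slc43a1 (0.00 ± 1.0, adjusted p = 1) were not called. For Slc7a5 and Slc7a6, both higher in tumor cKO, the difference from spleen passed in 1 of 20 alternatives, limma with a pseudocount of 1 (Slc7a5 0.80, adjusted p = 0.0463, and Slc7a6 0.66, adjusted p = 0.0489). Slc7a11 was not called either, and with 2 reads in all of spleen its difference has no usable size.

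The heavy chain and its light chains were then set against each other on the RPKM scale, with Slc7a7 (y+LAT1), Slc7a8 (LAT2) and Slc7a10 (Asc-1), further CD98 light chains that are no members, added to the sum. Light-chain RNA of the spleen summed to 3.39 ± 0.426 RPKM for WT and 4.03 ± 0.142 for cKO, and that of the tumor to 53.8 ± 11.7 for WT and 47.8 ± 2.13 for cKO (SD, n = 3 each). Tumor libraries thus held more of it than any spleen library, and tumor cKO lay within the WT range of 41.3 to 64.5. Its ratio to Slc3a2 was 0.124 ± 0.0141, 0.144 ± 0.00431, 0.232 ± 0.0358 and 0.307 ± 0.00720 in that order of groups. In all 4 groups Slc3a2 RNA was in excess per length.

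The parts of that sum also differed between genotypes. In tumor WT, Slc7a11 made up 29.7% ± 7.77 of light-chain RNA, Slc7a5 16.9% ± 1.93, and Slc7a7 with Slc7a8 49.9% ± 4.73. In tumor cKO, Slc7a5 made up 45.1% ± 10.9, Slc7a11 16.6% ± 6.87 and Slc7a7 with Slc7a8 31.2% ± 5.63. The ranges of the Slc7a5 share and of the Slc7a7 with Slc7a8 share were apart, but those of the Slc7a11 share overlapped, with 20.7% in tumor WT replicate 2 and 22.6% in tumor cKO replicate 1. The ratio of Slc7a5 to Slc3a2 in tumor was 0.0449, 0.0428 and 0.0303 for WT and 0.112, 0.128 and 0.173 for cKO, with no overlap and a ratio of means of 3.50 (two-sided exact permutation p = 0.1, the smallest that 3 against 3 libraries allow). In spleen it was 0.0362 ± 0.0070 in WT and 0.0563 ± 0.0165 in cKO, ranges that overlapped (exact p = 0.2). Tumor WT and spleen WT overlapped as well (0.0393 ± 0.00789 against 0.0362, exact p = 0.5), with Slc7a5 10.1-fold and Slc3a2 9.48-fold higher in tumor WT than in spleen WT. Slc7a8 was at 96.9 CPM in tumor WT and 32.6 CPM in tumor cKO (log2 -1.57 ± 0.38, adjusted p = 0.00827) and Slc7a7 at 16.1 and 20.7 CPM (log2 0.36 ± 0.29, adjusted p = 0.343), both named here after their values were seen.

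**Figure D4:**
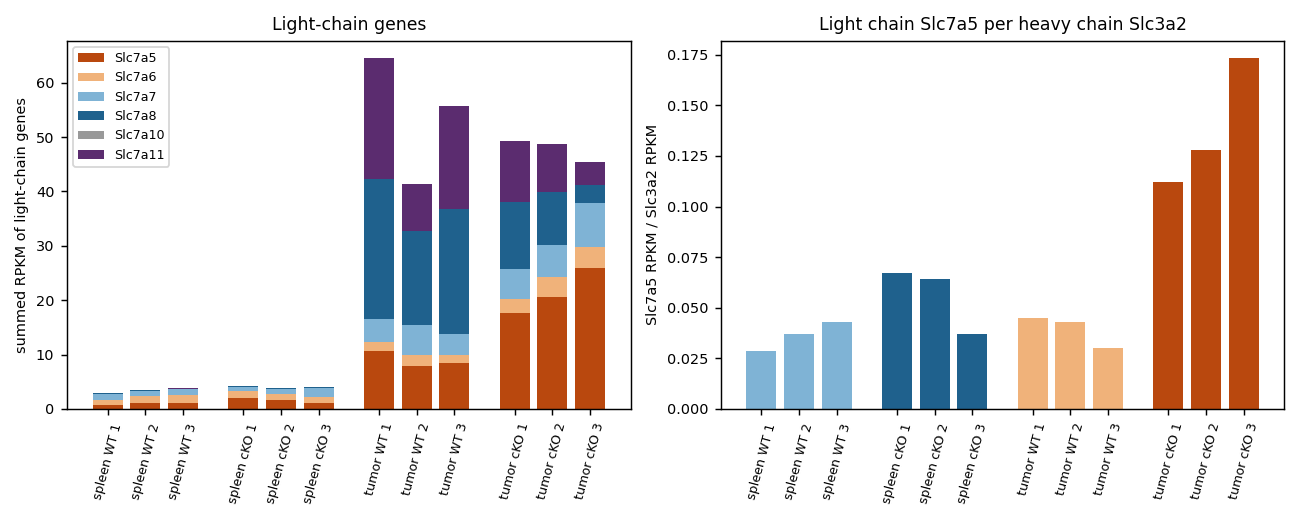
Left, summed RPKM of the CD98 light-chain genes in each library, stacked by gene; right, the ratio of Slc7a5 RPKM to Slc3a2 RPKM in each library. Tumor bars on the left reach 41.3 to 64.5 RPKM, and on the right the 3 tumor cKO bars (0.112 to 0.173) stand above all 9 others.

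Genes around the transporters were described from 6 lists. For tumor cKO against WT, 14 of 24 other amino acid transporters tested were lower and 1 higher (38 in the list, median log2 change -1.24). The background of 16.4% higher and 21.6% lower calls holds for each list in this comparison. Slc6a13, a carrier of GABA and taurine, rose from 14.0 ± 2.1 to 36.6 ± 2.7 CPM (log2 1.38 ± 0.31, adjusted p = 0.00399). Slc7a2, the inducible arginine carrier CAT2, was at 401 CPM in tumor WT and 39.6 CPM in tumor cKO (log2 -3.34 ± 0.80, adjusted p = 0.0195), but did not pass without tumor WT replicate 2 (log2 -2.05, adjusted p = 0.0528) or tumor cKO replicate 2 (0.0656) or 3 (0.0834). Slc36a2, a proton-coupled carrier related to Slc36a4, fell by 4.87 on the log2 scale (adjusted p = 0.0095), from 4.63 to 0.154 CPM, and did not pass without tumor WT replicate 2 (-3.02, adjusted p = 0.0598). Without tumor cKO replicate 3, 8 of these transporters were called in place of 15. The 10 of 10 macrophage markers that fell in this comparison are given above, and their part in this list was not tested either.

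The list of cytosolic aminoacyl-tRNA synthetases, which load amino acids onto tRNA, also held partner proteins that are no synthetases, such as Aimp1. Of its 23 genes, 16 were higher in tumor cKO and 1 was lower (median 0.77). Vars (valine) rose from 49.9 ± 8.3 to 116 ± 18 CPM (log2 1.22 ± 0.14, adjusted p = 6.42e-05) and Iars (isoleucine) from 45.3 ± 9.2 to 102 ± 17 CPM (log2 1.17 ± 0.16, adjusted p = 0.000201). The exception was Rars (arginine), from 243 to 147 CPM (log2 -0.72 ± 0.17, adjusted p = 0.00531). Of 21 genes of the amino acid starvation response tested, 8 were higher and 4 lower (median 0.50), and 7 in all without tumor WT replicate 1 or without replicate 3. Asns, asparagine synthetase, rose from 21.7 ± 5.6 to 67.7 ± 15 CPM (log2 1.64 ± 0.30, adjusted p = 0.00132), and Phgdh, the first enzyme of serine synthesis, from 123 to 377 CPM (log2 1.61 ± 0.15, adjusted p = 2.61e-05). Atf3, a stress-induced transcription factor, fell from 426 to 154 CPM (log2 -1.47 ± 0.44, adjusted p = 0.0248), and Nupr1, a stress-induced chromatin protein, from 68.0 to 30.7 CPM (log2 -1.15 ± 0.35, adjusted p = 0.0236). Atf3 did not pass without tumor cKO replicate 1 (0.0703) or tumor WT replicate 1 (0.0628) or 3 (0.0658). Nupr1 did not pass without tumor cKO replicate 3 (0.0556) or tumor WT replicate 1 (0.0671) or 3 (0.0809).

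The list of glutamine use and glutathione synthesis had 4 genes higher and 9 lower of 18 tested in tumor cKO (median -0.52). Cad, which starts pyrimidine synthesis from glutamine, rose from 38.9 to 105 CPM (log2 1.43 ± 0.19, adjusted p = 0.000186). Glul, glutamine synthetase, fell from 118 ± 17 to 27.2 ± 8.8 CPM (log2 -2.12 ± 0.21, adjusted p = 4.39e-05), and Got1, the cytosolic aspartate aminotransferase, from 163 ± 21 to 63.2 ± 3.8 CPM (log2 -1.37 ± 0.14, adjusted p = 4.17e-05). Genes of mTORC1 amino acid sensing had 6 higher and 10 lower of 35 tested (median -0.15). These values are not far from the shares of all genes called and from their median of -0.12. Rragb, a Rag GTPase, rose from 2.16 to 6.39 CPM (log2 1.54 ± 0.35, adjusted p = 0.00416) and Sesn3, a sestrin, from 37.1 to 63.5 CPM (log2 0.77 ± 0.14, adjusted p = 0.00118). Flcn, folliculin, fell from 57.0 to 24.1 CPM (log2 -1.24 ± 0.20, adjusted p = 0.000541), and its partner Fnip2 from 162 to 63.5 CPM (log2 -1.36 ± 0.34, adjusted p = 0.00884). Of 8 genes of branched-chain amino acid use, 2 were higher and 2 lower (median 0.17). Dbt, the E2 subunit of the branched-chain ketoacid dehydrogenase, rose from 9.83 to 17.9 CPM (log2 0.85 ± 0.22, adjusted p = 0.00912) and Dld, the E3 subunit that it shares with other complexes, from 127 to 166 CPM (log2 0.39 ± 0.10, adjusted p = 0.00902). Dld did not pass without a filter (adjusted p = 0.0726). Bcat2, the mitochondrial branched-chain aminotransferase, fell from 23.8 to 14.5 CPM (log2 -0.72 ± 0.20, adjusted p = 0.0125). Bcat2 did not pass with library totals as scaling (adjusted p = 0.0527) or by limma (0.0647 and 0.0635). It was also lost with tumor WT replicate 2 left out along with tumor cKO replicate 3 (0.0775). Bckdha, an E1 subunit, fell from 10.5 to 7.19 CPM (log2 -0.54 ± 0.18, adjusted p = 0.0342), a call that was lost when any of 8 single libraries was left out (adjusted p up to 0.128, without tumor WT replicate 3), without a filter (0.239) and by limma (0.0567 and 0.0618).

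Across tissues the same lists are read against 33.9% higher and 28.1% lower calls among all genes in WT and 31.7% and 28.8% in cKO. In WT, 17 of 24 other transporters were higher and 2 lower in tumor. In cKO 10 were higher and 5 lower, and a floor for genes without reads moved the median there from 0.64 to 0.61. Of the 24, 2 in WT and 3 in cKO had a group without reads. Such a gene passed the filter on low counts only through other groups, which can favour its call. Slc7a2 had no reads in spleen WT and 36615 in tumor WT, 6521-fold higher with 3 counts over the spleen group set as floor. Starvation-response genes were higher for 15 of 21 in WT and for 15 in cKO, with 3 and 1 lower. Asns rose from 0.101 CPM in spleen WT to 21.7 CPM in tumor WT (log2 7.57 ± 0.88, adjusted p = 1.53e-07). It had 4 reads in spleen WT and 20 in spleen cKO, so it passed the filter on low counts only through tumor. That entry favoured its call, which is no separate support. Asns is counted among the 15 starvation-response genes higher in WT. The synthetase list had 9 of 23 genes higher and 2 lower in WT but 15 higher and 1 lower in cKO. Glutamine and glutathione genes had 15 of 18 and 14 of 18 higher. For mTORC1 sensing genes, 12 were higher and 10 lower of 35 in both genotypes. Branched-chain genes had 3 of 8 higher in each genotype and 3 and 2 lower. The shares of mTORC1 sensing and branched-chain genes called higher, and of the synthetase list called higher in WT, lay near those of all genes. In spleen, edgeR over 12 libraries called no gene of the 6 lists between cKO and WT. Of the other transporters 1 was called by edgeR without a filter, by edgeR on the 6 spleen libraries alone and by DESeq2, and 0 by limma. In all, 5 of 129 gene entries tested had an unadjusted p under 0.05.

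**Figure D5:**
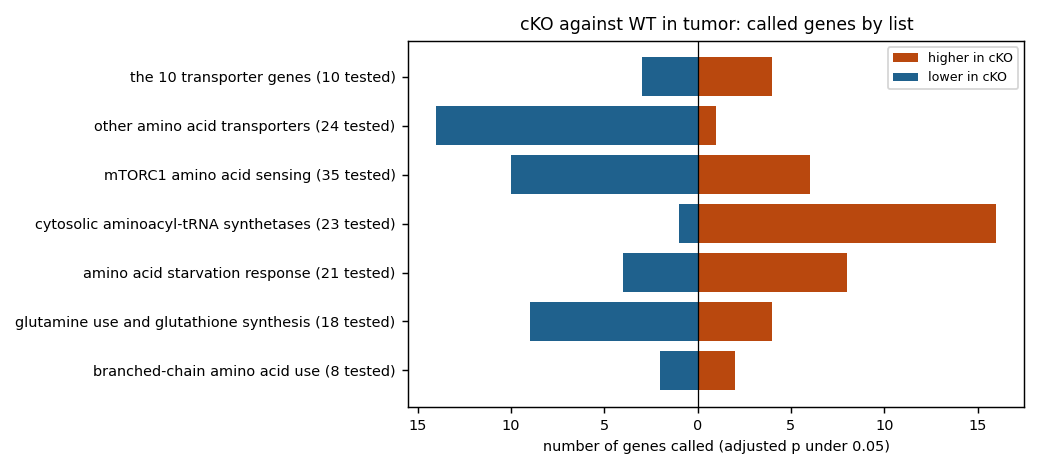
Number of genes called higher (right) or lower (left) in tumor cKO than in tumor WT for the 10 transporter genes and for 6 lists of related genes, with the number tested in parentheses. The synthetase list extends to the right (16 against 1) and the other amino acid transporters to the left (1 against 14).

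The genes most like each member were found by the root-mean-square difference of log2 CPM, each gene centred on its mean over the 12 libraries, among 9432 named genes whose log2 CPM averaged 2 or more. A value of 0 means the same profile, and the 12 libraries share the 4 groups. Slc1a5 was nearest to Atxn1l (0.0827) and Rptor (0.102), and Slc7a1 to Nhp2 (0.0997) and Gtf2e2 (0.132). Slc38a1 was nearest to Cars (0.114) and Ppid (0.125), Slc7a6 to Got2 (0.153) and Ola1 (0.161), and Slc38a2 to Nt5dc3 (0.156) and G6pdx (0.157). Slc3a2 had Pcyt1a (0.173) and Gcsh (0.190) as its nearest genes, and Slc7a5 had Pde4d (0.233) and Trac (0.332). The profiles of Slc36a4, with Fcgr2b (0.385) and Mcf2l (0.453), of Slc43a1, with Ift140 (0.396) and Aff3 (0.443), and of Slc7a11, with Mmp19 (0.583) and Inhba (0.650), had no gene closer than these. Among the members themselves, Slc7a1 and Slc7a6 were the closest pair (0.219), and Slc7a5 and its heavy chain Slc3a2 were 0.805 apart.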

How the data were processed

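RNA of 12 mouse samples was sequenced on an Illumina NovaSeq, per the labels, which map 3 samples to each of the 4 groups. The authors mapped reads with TopHat2 2.0.6 to mm10, per the submitters' processing notes; how reads were counted, and whether by strand, is not given in the sources used here. Gene counts and RPKM were deposited by the authors, and 100% of nonzero RPKM values matched counts over listed length and library total within a relative tolerance of 0.001. Of the counts from 1 to 49, 68.8% to 73.3% were even numbers, so counting intervals are too narrow. Folds over a floor of 3 counts may be too high for the same reason. The gene knocked out is not reported here, and no check of the genotypes against it was made.

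Counts were fitted in R 4.3.3 with edgeR 4.0.16 (filterByExpr, TMM factors, quasi-likelihood F-test, two-sided, over all 12 libraries). Adjustment was by Benjamini-Hochberg over 16831 genes. CPM are counts over the library total times its TMM factor, SE are Wald errors of that fit, and a floor is 3 counts. The script was tested on simulated data with genes changed in tumor cKO. It recovered 38.8% of log2 changes of 1 and 71.9% of log2 changes of 2, with 7 false calls among 16375 genes. A gene not called may thus still differ. The simulation changed 100 genes at each size, and the percentages are not of all 100. In the real tumor comparison 38.0% of genes were called, so these rates need not hold for it. Alternatives used DESeq2 1.42.0, limma 3.58.1 on log2 of the deposited RPKM plus a pseudocount of 0.1 or 1, other filters and scalings, and left out libraries. All members are named, as are the 2 genes most like each member. The rule also allows, per list and comparison, up to 2 called genes with the largest rise and 2 with the largest fall whose ranges were apart; these are named for tumor cKO against WT, and across tissues only Slc7a2 and Asns, chosen after their values were seen. Members, lists and tests were chosen with earlier results of these data known. Coordinates are those of the count table, which for 9 of the 10 genes equal GENCODE vM21 on GRCm38. All 10 are protein coding there, and no exon of theirs overlaps another gene's. The listed sensing genes Castor1, Castor2 and Samtor were not analysed here. As separate animals are not stated, p-values reflect only the spread among these libraries, which may be technical.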

Additional observations from a re-analysis of the deposited data

Results flagged for a closer look

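A different effect of the knockout in tumor and in spleen, by the interaction test, brought 4 members here. The differences of log2 changes (tumor minus spleen) were -2.00 for Slc36a4, -0.79 for Slc3a2, 0.66 for Slc7a1 and 0.61 for Slc38a1, with adjusted p of 0.0175, 0.0201, 0.0467 and 0.0455 by edgeR over 12 libraries. In tumor, all 3 cKO libraries lay below all 3 WT libraries for Slc36a4 and Slc3a2 and above them for Slc7a1 and Slc38a1. In spleen the ranges were apart for Slc36a4 only. Among markers, 10 of 10 macrophage genes and 3 of 5 genes of dividing cells were also called in this test, the former more negative and the latter more positive in tumor, and their part in the members' differences was not tested.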

How the results depend on the processing

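Members called in tumor between cKO and WT numbered 5 to 7 under the 21 alternatives, in tumor against spleen 7 to 9 in WT and 8 to 10 in cKO, and in spleen 0. Members called for the difference between tissues numbered 4, against 2 without a filter, 2 with tumor WT replicate 2 left out along with tumor cKO replicate 3, 6 by limma with a pseudocount of 1, which adds Slc7a5 and Slc7a6, and 1 to 4 when single libraries were left out; the cause was not tested. Genes of the whole table called in spleen numbered 5, against 230 without a filter, 46 by DESeq2, 31 with the 6 spleen libraries alone, 34 without the 2 libraries just named, 10 and 11 by limma with pseudocounts of 0.1 and 1, and 0 to 8 with single libraries left out. The replicate number does not mark shared animals in the labels, and same-numbered libraries correlated from -0.088 to 0.111 in their deviations, others from -0.080 to 0.116. With a replicate block, 2 genes of the table were called in spleen and 2 members, Slc36a4 and Slc3a2, for the difference between tissues, and no other count of called members changed. Values not called in either fit changed sign at times. In spleen, leaving out single libraries gave log2 changes from -0.0896 to 0.194 for Slc7a1, -0.122 to 0.119 for Slc7a6, -0.0256 to 0.0642 for Slc3a2, -0.118 to 0.0441 for Slc1a5 and -0.135 to 0.0541 for Slc38a2. In tumor, Slc1a5 ranged from 0.00432 to 0.172, and was at -0.0455 with tumor WT replicate 2 left out along with tumor cKO replicate 3. For the difference between tissues, Slc43a1 ranged from -0.506 to 0.573, and was at -0.262 and -0.156 by limma. Low counts limit Slc43a1 in tumor and Slc7a11 in spleen, where a pseudocount also shrinks the limma changes of Slc7a11, Slc43a1 and Slc36a4.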
